A study of Rattus norvegicus with 12 samples.

Results

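The interferon response genes are genes that cells switch on when interferon, a secreted warning signal of infection and injury, binds its receptors, together with the transcription factors that carry the signal. Here they were a list of 39 gene symbols, and all 39 were found among the 30452 genes of the table. The symbols were chosen by name but with earlier results of these data known, so the list is not blind to them. RNA sequencing of rat cornea gave 12 libraries, and each of the 4 groups holds 3 of them. Control and Alkali-burned corneas are named by those words alone, so Control is taken as cornea outside the burn and patch groups. The other 2 groups, SF/HA and SF/HA-HEP-PAM, carry the names of patches, in a series about a detachable silk patch that draws inflammatory mediators off the eye surface. What SF, HA, HEP and PAM stand for is not in the labels, nor is a burn stated for the patch corneas. Strain, age, sex, genotype and the time after injury or patch are not given in the labels. No label says that replicates came from separate animals, so the spread behind each p-value is that between libraries and may be technical.

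Type I and type III interferons act through the kinases Jak1 and Tyk2 and a complex that holds Stat2 and Irf9 and binds the interferon-stimulated response element. Type II interferon, Ifng, acts through the gamma-activated site and raises Irf1, a transcription factor that in turn switches on immunoproteasome and guanylate-binding protein genes. In the cornea, epithelium, stromal cells and infiltrating leukocytes can all respond. Of the 39 genes, 27 reached 1 FPKM (fragments per kilobase per 1e6 mapped reads) in at least 3 libraries and were tested. One of them, Usp18, passed through its level in the burned corneas alone. The other 12 are given by their reads near the end. Depth differed: SF/HA-HEP-PAM libraries held 1245606 to 2117399 reads on genes and Alkali-burned ones 1173159 to 1265298, but SF/HA only 499061 to 957696 and Control 486264 to 1015788.

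SF/HA-HEP-PAM replicate 1 stands apart from the other 2 libraries of its group in these genes. It was the highest of the 3 in 20 of the 27 genes, against 41.4% of all 6112 genes tested, and more than 2-fold above both others in 7, against 3.58% of all genes. Alkali-burned replicate 1 was the lowest of its group in 23 of the 27, against 33.1% of all genes.

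Promoters were searched for the 2 sites through which interferon signals act. The 250 bases before the gene start were searched in the RefSeq promoter table (rat build GRCr8), which held 33 of the 39 genes. Ifit2, Isg15, Usp18, Zbp1, Mx2 and Dhx58 were not matched. The core of the interferon-stimulated response element, GAAA and again GAAA with any 2 bases between them, on either strand, was in 19 of 33 members (57.6%) and in 3.41% of all 33469 promoters of that length. The gamma-activated site, TTCNNNGAA, which reads the same on both strands, was in 10 of 33 (30.3%) and in 7.67% of all promoters. Matches of the 2 motifs may overlap each other and were counted apart. Both motifs were in 5 members and neither was in 9. A match describes letters in this window and is not a measured binding site.

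Apol9a, Gbp2 and Ifitm3 are the members called in at least 2 comparisons with a match to the response element core, and their stretches are shown first because their expression followed different courses. Irf7, Bst2 and Rsad2 were added after their values were seen, as examples that varied most between replicates or were not called. All run 5′ to 3′ on the gene's strand, with the matched bases in capitals. Where the core lies on the other strand it reads TTTC, 2 bases, TTTC. In Apol9a and in Bst2 a pair of matches overlaps.
Apol9a, chr7:111028230-111028325, minus strand: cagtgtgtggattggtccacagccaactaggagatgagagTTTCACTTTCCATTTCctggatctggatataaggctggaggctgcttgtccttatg
Gbp2, chr2:234005656-234005726, plus strand: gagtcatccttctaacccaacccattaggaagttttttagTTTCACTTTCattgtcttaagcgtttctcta
Ifitm3, chr1:205541759-205541842, minus strand: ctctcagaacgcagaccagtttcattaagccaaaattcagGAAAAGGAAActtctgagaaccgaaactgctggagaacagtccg
Irf7, chr1:205800043-205800132, minus strand: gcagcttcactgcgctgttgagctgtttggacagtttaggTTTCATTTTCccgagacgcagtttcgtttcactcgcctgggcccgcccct
Bst2, chr16:18255043-18255138, minus strand: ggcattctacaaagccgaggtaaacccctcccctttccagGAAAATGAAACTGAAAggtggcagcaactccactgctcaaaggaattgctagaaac
Rsad2, chr6:48788218-48788307, minus strand: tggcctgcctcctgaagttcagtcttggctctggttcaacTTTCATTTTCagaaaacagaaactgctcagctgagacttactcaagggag

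Irf1 and Ifi47 hold the gamma-activated site and no match to the response element core, and are shown because both fell in each patch group. They too were added after their values were seen. Psmb8 also holds that site without the core and was not called against burn in either patch group. Cmpk2, which fell in both patch groups, and Oasl and Dtx3l, which fell in SF/HA, hold neither motif. A link between motif and fall was not tested. The letters of TTCNNNGAA are in capitals, and Ifi47 has 2 such matches in the stretch.
Irf1, chr10:38417753-38417841, plus strand: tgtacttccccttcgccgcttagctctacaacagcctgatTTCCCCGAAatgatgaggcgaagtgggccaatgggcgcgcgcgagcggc
Ifi47, chr10:33798494-33798696, plus strand: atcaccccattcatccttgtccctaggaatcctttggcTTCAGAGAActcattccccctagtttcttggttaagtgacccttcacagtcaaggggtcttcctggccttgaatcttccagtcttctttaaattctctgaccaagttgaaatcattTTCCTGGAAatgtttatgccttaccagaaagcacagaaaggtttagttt

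Alkali burn against Control asks what injury changed. Of the 27 tested members 7 rose and 0 fell at an adjusted p below 0.05 and a log2 difference above 1 or below -1, where 4.42% of all tested genes rose and 1.28% fell. They were Gbp2, Apol9a, Psmb9, Ifitm3, Cmpk2, Psmb8 and Irf1. The median log2 difference over the 27 was 0.80, beside 0.06 over all genes, and in 19 of them all burned libraries lay above all Control libraries, as in 19.1% of all genes. Every one of the 27 had a difference above 0, against 55.2% of all genes, except that quantile normalization put Mx1 and Ifi27 below 0. Usp18, which entered the test only through the burned libraries, is in the 19, the 27 and the median, and is no support for them. In bulk tissue, more cells of a type and more RNA per cell cannot be told apart.

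SF/HA against Alkali-burned gave 7 lower members and 0 higher, where 2.06% of all genes were lower and 0.376% higher. They were Cmpk2, Apol9a, Ifi47, Zbp1, Irf1, Dtx3l and Oasl. SF/HA-HEP-PAM against Alkali-burned gave 6 lower and 0 higher, where 3.71% of all genes were lower and 7.38% higher, namely Cmpk2, Apol9a, Ifi47, Zbp1, Irf1 and Usp18. Usp18 entered the test only through the burned libraries, where it is high, so its fall is no support for the count. The median log2 difference was -0.87 for SF/HA (all genes -0.04) and -0.41 for SF/HA-HEP-PAM (all genes 0.04), or -0.65 without SF/HA-HEP-PAM replicate 1. All 3 patch libraries lay below all burned libraries in 22 of 27 members for SF/HA (13.4% of all genes) and in 9 of 27 for SF/HA-HEP-PAM (21.3% of all genes). Without SF/HA-HEP-PAM replicate 1 the latter count was 18 of 27 (26.0% of all genes). That library was singled out for its high values in these same genes, so leaving it out favours falls. The count of 18 and the median of -0.65 are given as values and are no support for a fall. Usp18 is in the 22, the 9 and the 18 and in the medians, and is no support for those either. These comparisons share the burned libraries, as does the comparison with Control, so the values stand side by side and are not independent of each other. Over the 4 groups, limma's F-test called 12 of the 27 members, Usp18 among them, and 26.7% of all genes.

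**Figure D1:**
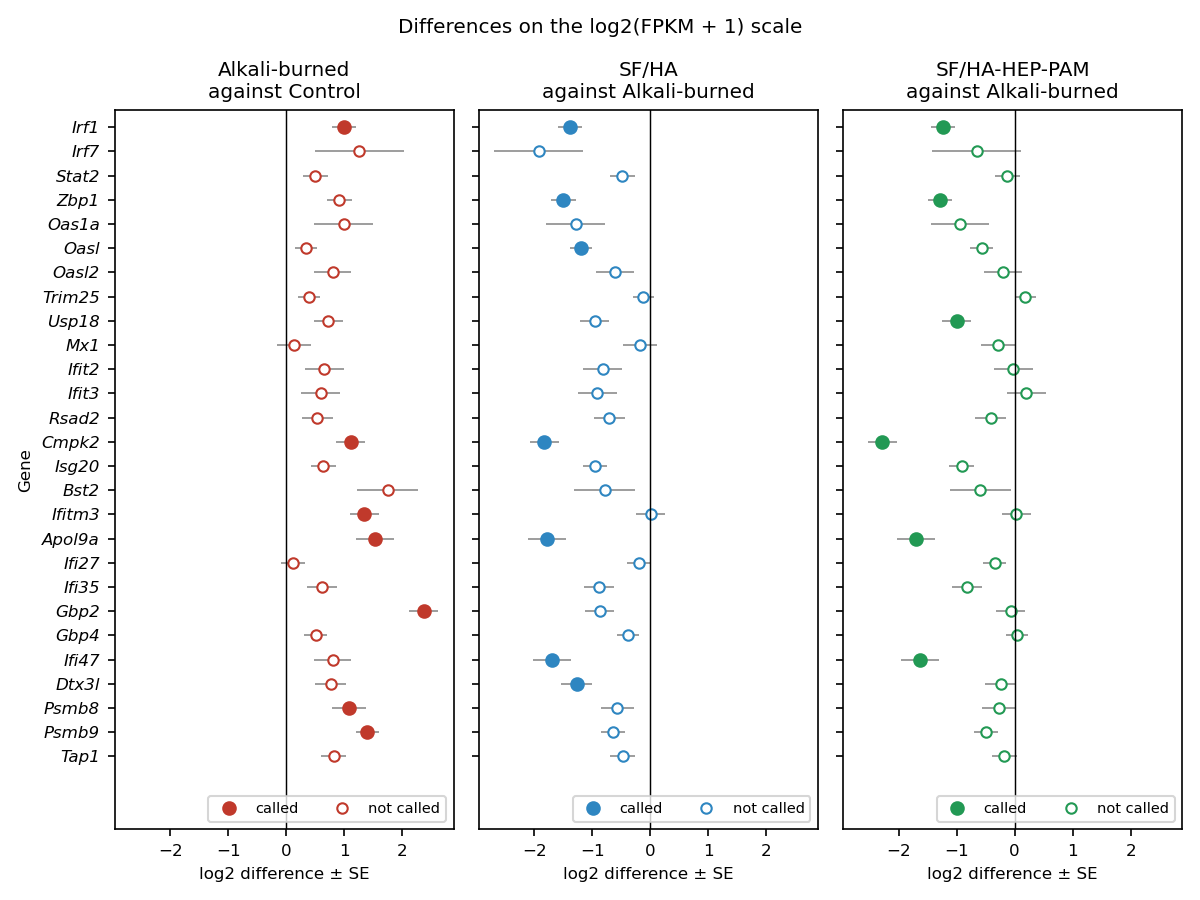
Log2 differences ± SE for the 27 tested members (y axis) in 3 comparisons (x axis, log2(FPKM + 1) scale, limma), with filled points for members called. Burn against Control has 7 filled points, all to the right, and the patch panels have 7 and 6, all to the left.

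Among the transcription factors, Irf1 (chromosome 10, 37916670 to 37924166, build mRatBN7.2) had 24.1, 41.4 and 34.7 FPKM in the 3 Control libraries. It had 57.0, 76.2 and 67.1 FPKM in Alkali-burned, 23.0, 23.3 and 28.1 in SF/HA and 29.9, 23.4 and 30.2 in SF/HA-HEP-PAM libraries. The burned libraries lay above all 9 others, and the patch groups overlapped Control. Irf1 was higher after burn by 1.001 on the log2(FPKM + 1) scale (SE 0.21, adjusted p = 0.0149). Against burn it was lower in SF/HA (log2 difference -1.39, SE 0.21, adjusted p = 0.00588) and in SF/HA-HEP-PAM (-1.23, SE 0.21, adjusted p = 0.00249). The rise lies at the fold limit: without Control replicate 1 it was 0.79, and without Alkali-burned replicate 2 or 3 its adjusted p was 0.0588 and 0.0518. Both falls held whichever single library was left out.

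Irf7, the factor that amplifies type I interferon production, behaved less evenly. Control libraries had 14.2, 26.3 and 27.8 FPKM, Alkali-burned 35.1, 64.4 and 69.1, and SF/HA 7.76, 10.97 and 27.7. SF/HA-HEP-PAM libraries had 133, 24.8 and 11.3 FPKM, so the highest and one of the lower values of the series fell in the same group. Irf7 was called in no comparison. Its log2 difference against burn in SF/HA was -1.93 (SE 0.76, adjusted p = 0.234), the lowest of the 27 members there, and its adjusted p was 0.0714 without SF/HA-HEP-PAM replicate 1. Against burn, its log2 difference in SF/HA-HEP-PAM was -0.65 (SE 0.76, adjusted p = 0.583), and with replicate 1 of SF/HA-HEP-PAM left out it was -1.62 (SE 0.55, adjusted p = 0.0797). Leaving out the library where Irf7 is highest favours a fall against burn. Stat2, a part of the type I complex, was between 0.749 and 2.80 FPKM in all libraries and was not called.

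Zbp1, a sensor of left-handed nucleic acid that can start cell death (chromosome 3, 161993351 to 162003870), had 5.28, 4.72 and 5.80 FPKM in Control. It had 7.70, 13.1 and 12.4 FPKM in Alkali-burned, 4.13, 2.67 and 2.88 in SF/HA and 3.98, 3.19 and 4.503 in SF/HA-HEP-PAM. Every patch library lay below every Control library, and every burned library above. Zbp1 fell against burn in SF/HA (log2 difference -1.5003, SE 0.21, adjusted p = 0.00444) and in SF/HA-HEP-PAM (-1.28, SE 0.21, adjusted p = 0.00228), and both calls held whichever single library was left out. Its difference after burn, 0.92 (SE 0.21, adjusted p = 0.0227), was under the fold limit, but was 1.14 without Alkali-burned replicate 1 (adjusted p = 0.0107). Against Control the difference was -0.58 in SF/HA and -0.36 in SF/HA-HEP-PAM (adjusted p = 0.135 and 0.246).

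Oasl, an oligoadenylate synthetase-like protein (chromosome 12, 41682900 to 41695641), had 12.1, 19.5 and 17.9 FPKM in Control and 17.2, 22.6 and 22.8 in Alkali-burned. It had 8.23, 9.75 and 7.54 FPKM in SF/HA and 15.3, 12.7 and 13.0 in SF/HA-HEP-PAM. The SF/HA libraries were the lowest 3 of the 12. Oasl fell in SF/HA against burn (log2 difference -1.20, SE 0.19, adjusted p = 0.00874), while in SF/HA-HEP-PAM the difference was -0.57 (SE 0.19, adjusted p = 0.059). The direct comparison of the patches gave 0.63 higher in SF/HA-HEP-PAM (95% interval 0.20 to 1.06, adjusted p = 0.0714).

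Oas1a makes the short adenylate chains that activate RNase L. It had 1.34, 5.37 and 5.14 FPKM in Control, 5.49, 10.9 and 8.28 in Alkali-burned, 2.24, 2.62 and 3.22 in SF/HA, and 8.34, 3.61 and 1.35 in SF/HA-HEP-PAM. All SF/HA libraries lay below all burned libraries, and SF/HA-HEP-PAM overlapped both. It was not called in any comparison. Because the Oas1 genes of rat are near-identical copies, its reads may be shared with them. Oasl2 was 0.457 to 3.35 FPKM and Trim25, the ubiquitin ligase of the RIG-I pathway, 0.427 to 1.63 FPKM over the 12 libraries, and neither was called.

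**Figure D2:**
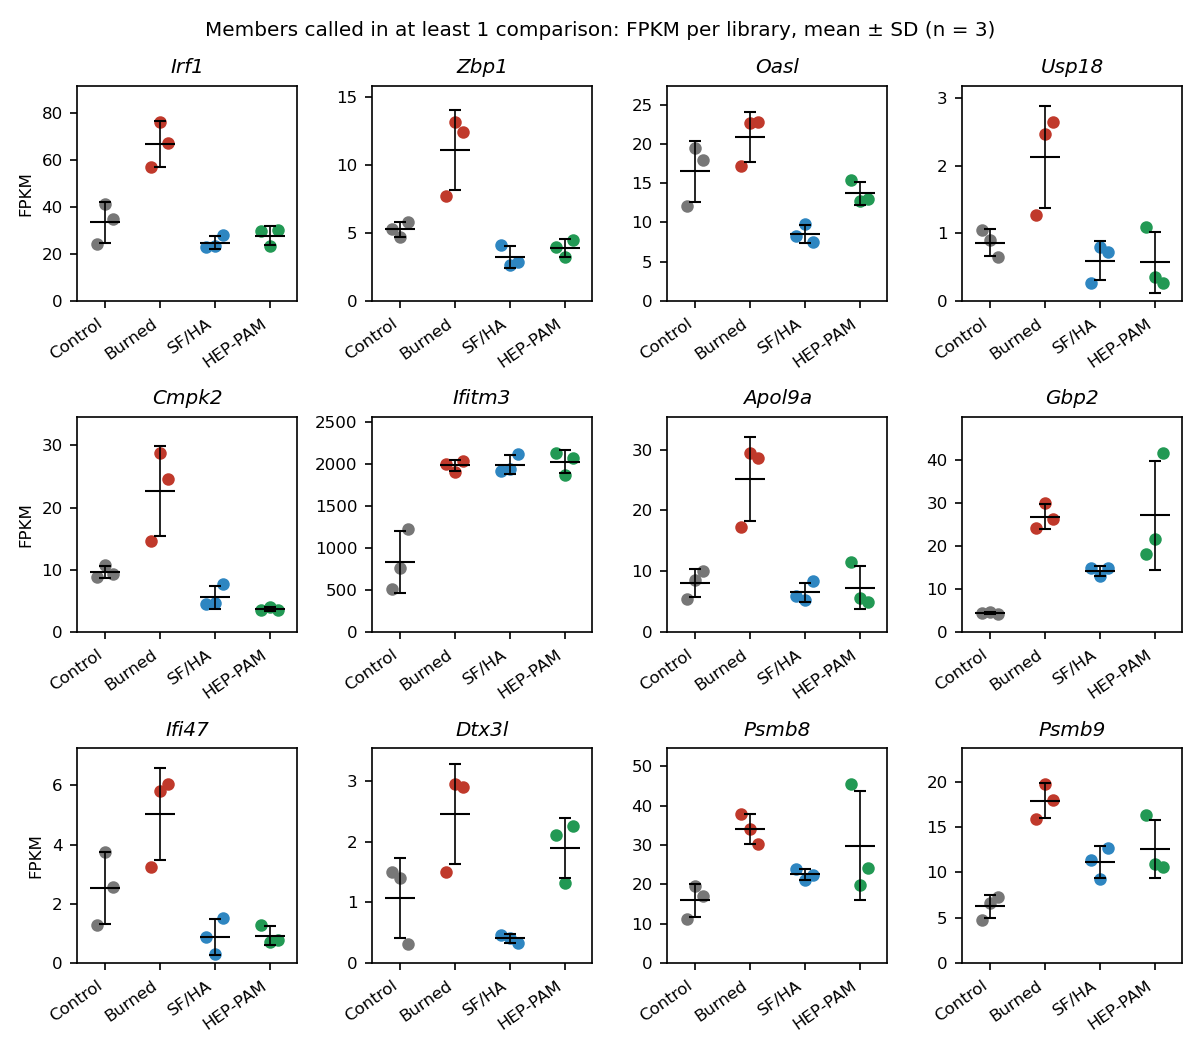
FPKM (y axis, linear from 0) in each of the 12 libraries by group (x axis), with the mean and SD of 3 libraries, for the 12 members called in at least 1 comparison. Irf1, Zbp1, Cmpk2, Apol9a and Ifi47 peak in Alkali-burned and are low in both patch groups, whereas Ifitm3 lies between 1874 and 2136 FPKM in every burned and patch library.

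Usp18, the protease that takes ISG15 off proteins and dampens the type I receptor (chromosome 4, 154471592 to 154499144), was low in FPKM. It had 378 reads in all, over a genomic span of 27553 bases that lowers its FPKM. It had 1.04, 0.901 and 0.643 FPKM in Control, 1.27, 2.47 and 2.65 in Alkali-burned, 0.272, 0.80 and 0.72 in SF/HA and 1.09, 0.36 and 0.262 in SF/HA-HEP-PAM. All burned libraries lay above all others. It fell in SF/HA-HEP-PAM against burn by 1.001 on the log2 scale (SE 0.25, adjusted p = 0.018), at the fold limit, and in SF/HA the difference was -0.96 (SE 0.25, adjusted p = 0.0726), or -1.17 without Alkali-burned replicate 1 (adjusted p = 0.0379). Since it passed the filter only through the burned libraries, falls against burn are favoured by that choice and are given as values. The former call was lost without Alkali-burned replicate 2 or 3 or SF/HA-HEP-PAM replicate 2 or 3, with differences of -0.92 to -0.86 and adjusted p of 0.0632 to 0.0758.

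Among the antiviral effectors, Cmpk2 had the lowest difference from burn in both patch groups. It encodes a mitochondrial nucleotide kinase (chromosome 6, 43073796 to 43085183) and lies head to head with Rsad2, with 14096 bases between the genes. Cmpk2 had 8.85, 10.8 and 9.25 FPKM in Control, 14.7, 28.8 and 24.6 in Alkali-burned, 4.47, 4.57 and 7.70 in SF/HA and 3.56, 4.02 and 3.52 in SF/HA-HEP-PAM. No library of either patch group reached the lowest Control library. It rose after burn (log2 difference 1.11, SE 0.25, adjusted p = 0.021). It fell against burn in SF/HA (-1.83, SE 0.25, adjusted p = 0.00376) and in SF/HA-HEP-PAM (-2.28, SE 0.25, adjusted p = 0.000244). It was the one member called lower than Control with all libraries on log2(FPKM + 1), in SF/HA-HEP-PAM (-1.17, SE 0.25, adjusted p = 0.00848), where 2.39% of all genes were lower. In SF/HA that difference was -0.72 (adjusted p = 0.118). The falls held whichever library was left out, and the rise was lost without Control replicate 3 (adjusted p = 0.0628) or Alkali-burned replicate 2 or 3 (0.0765 and 0.0763). Rsad2, the antiviral protein viperin, was 1.93 to 6.43 FPKM and was not called.

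Apol9a, an interferon-induced member of the apolipoprotein L family (chromosome 7, 109140871 to 109147649), had 5.46, 8.49 and 10.02 FPKM in Control and 17.2, 29.5 and 28.7 in Alkali-burned. It had 5.96, 5.32 and 8.32 FPKM in SF/HA and 11.4, 5.504 and 4.97 in SF/HA-HEP-PAM. The burned libraries lay above all others and the remaining 3 groups overlapped. It rose after burn (log2 difference 1.54, SE 0.33, adjusted p = 0.0166) and fell against burn in SF/HA (-1.78, SE 0.33, adjusted p = 0.0162) and SF/HA-HEP-PAM (-1.70, SE 0.33, adjusted p = 0.00518). The rise was lost without Alkali-burned replicate 2 or 3 (adjusted p = 0.0638 and 0.0624). The fall in SF/HA was lost without either of those or without SF/HA replicate 1 or 2 (adjusted p between 0.0577 and 0.0829). A gene on the same strand, AABR07058464.1, overlaps Apol9a, so its reads are uncertain.

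Ifitm3, a membrane protein that blocks virus entry (chromosome 1, 196111043 to 196112203), followed another course. It had 507, 758 and 1229.5 FPKM in Control and 2008, 1907 and 2041 in Alkali-burned. It had 1924, 1942 and 2123 FPKM in SF/HA and 2136, 1874 and 2076 in SF/HA-HEP-PAM. All 9 burned and patch libraries lay above all Control libraries and overlapped each other. Ifitm3 was higher than Control after burn (log2 difference 1.35, SE 0.25, adjusted p = 0.00946), in SF/HA (1.36, adjusted p = 0.0104) and in SF/HA-HEP-PAM (1.38, adjusted p = 0.00379). Against burn the differences were 0.01 and 0.03 (adjusted p = 0.999 and 0.949). The Ifitm genes are near copies of each other, which makes the split of reads among them uncertain. Ifitm1, from the pathway list, had 166 to 211 FPKM in SF/HA-HEP-PAM and 355 to 498 in SF/HA, and was lower in the former (log2 difference -1.12, SE 0.26, adjusted p = 0.0274).

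Bst2, the tetherin that holds virus particles on the cell, had 2.88, 4.74 and 3.86 FPKM in Control, 11.9, 19.9 and 14.3 in Alkali-burned, 5.03, 9.53 and 11.7 in SF/HA and 27.6, 5.16 and 5.84 in SF/HA-HEP-PAM. Every burned library lay above every Control and SF/HA library. Its difference after burn was 1.75 (SE 0.52, adjusted p = 0.0654), and it was called once SF/HA-HEP-PAM replicate 1 was left out (SE 0.29, adjusted p = 0.00805). It was also called after burn at a minimum of 5 FPKM (adjusted p = 0.0422), with only the compared libraries (0.0106) and on the recovered reads (0.0457). Without SF/HA-HEP-PAM replicate 1, Bst2 passed the test for SF/HA-HEP-PAM against burn (log2 difference -1.31, SE 0.33, adjusted p = 0.0295). With that library the difference was -0.59 (SE 0.52, adjusted p = 0.459). Leaving out the library where Bst2 is highest favours a fall against burn.

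The Ifit proteins bind foreign RNA. Ifit3 had 22.0, 16.5 and 30.2 FPKM in Control, 28.5, 37.8 and 36.7 in Alkali-burned, 19.8, 19.1 and 14.4 in SF/HA and 60.4, 44.9 and 22.3 in SF/HA-HEP-PAM. All SF/HA-HEP-PAM libraries lay above all SF/HA libraries. Between the patches the difference was 1.12 (95% interval 0.37 to 1.86, adjusted p = 0.0668), and on the recovered reads (limma-voom) it was called, at 1.01 (adjusted p = 0.0419, 5.84% of all genes higher). It was also called without SF/HA-HEP-PAM replicate 3 (1.51, adjusted p = 0.0278), where it was 1.19 above Control too (adjusted p = 0.0205). Ifit2, which lies next to Ifit3 with 5530 bases between them, had 5.42, 8.74 and 13.5 FPKM in Control, 10.5, 14.7 and 18.6 in Alkali-burned, 7.405, 9.58 and 6.20 in SF/HA and 19.9, 13.8 and 9.93 in SF/HA-HEP-PAM. It too was above every SF/HA library in SF/HA-HEP-PAM, with a difference of 0.80 (adjusted p = 0.164).

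Isg20, an exonuclease that degrades RNA, had 2.72, 4.43 and 4.63 FPKM in Control and 5.84, 7.07 and 6.79 in Alkali-burned. It had 2.46, 2.38 and 4.05 FPKM in SF/HA and 3.09, 2.39 and 3.63 in SF/HA-HEP-PAM, all below every burned library. Its differences against burn were -0.95 and -0.91 (adjusted p = 0.0386 and 0.013), short of the fold limit. The first was -1.14 without SF/HA replicate 3 (adjusted p = 0.0198) and the second -1.02 without SF/HA-HEP-PAM replicate 3 (adjusted p = 0.0241). Ifi35 had 5.52, 11.2 and 11.2 FPKM in Control, 12.7, 14.1 and 16.3 in Alkali-burned, 8.20, 5.60 and 8.41 in SF/HA and 9.06, 6.28 and 7.99 in SF/HA-HEP-PAM. Its differences against burn were -0.88 and -0.81 (adjusted p = 0.107 and 0.0465).

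Ifi27, a mitochondrial interferon-induced protein, had 6.03, 7.97 and 9.37 FPKM in Control, 6.98, 9.51 and 9.05 in Alkali-burned, 7.54, 5.60 and 8.99 in SF/HA and 6.91, 7.16 and 5.37 in SF/HA-HEP-PAM. The 4 groups overlapped and no comparison called it. Its gene model spans Ifi27l2b, so its reads are uncertain. Mx1, a GTPase that traps viral nucleocapsids, was 0.135 to 1.67 FPKM over the 12 libraries and was not called.

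Among the interferon-induced GTPases, which attack the vacuoles of intracellular microbes, Gbp2 and Ifi47 took different courses. Gbp2 (chromosome 2, 231332284 to 231348571) had 4.42, 4.64 and 4.05 FPKM in Control, 24.1, 29.9 and 26.3 in Alkali-burned, 14.8, 12.9 and 14.7 in SF/HA and 18.1, 21.6 and 41.6 in SF/HA-HEP-PAM. All 9 burned and patch libraries lay above all Control libraries, and SF/HA lay below burn and below SF/HA-HEP-PAM without overlap. It rose most of the 27 members after burn (log2 difference 2.37, SE 0.25, adjusted p = 0.000537). It was also higher than Control in SF/HA (1.496, SE 0.25, adjusted p = 0.00677) and in SF/HA-HEP-PAM (2.30, SE 0.25, adjusted p = 0.000349), where 3.19% and 9.21% of all genes were higher. SF/HA called 0 members below Control, where 1.37% of all genes were. Without Control replicate 1 it called 2, Ifi47 (-1.18, adjusted p = 0.0484) and Oasl (-1.06, adjusted p = 0.00603). Against burn its differences were -0.87 (adjusted p = 0.102) and -0.07 (adjusted p = 0.877), and between the patches 0.80 (95% interval 0.25 to 1.36, adjusted p = 0.0759). Without SF/HA-HEP-PAM replicate 1 the difference between the patches was called on the recovered reads (1.02, adjusted p = 0.0187). Gbp2 and Ifitm3 were the only members called higher than Control in the patch groups, and 25 of the 27 in SF/HA and 24 in SF/HA-HEP-PAM were called in neither direction against Control.

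Ifi47 (chromosome 10, 33285450 to 33306216) had 1.29, 3.75 and 2.56 FPKM in Control and 3.24, 5.82 and 6.05 in Alkali-burned. It had 0.865, 0.289 and 1.51 FPKM in SF/HA and 1.28, 0.705 and 0.773 in SF/HA-HEP-PAM. Every patch library lay below every burned library. Ifi47 fell in SF/HA (log2 difference -1.69, SE 0.32, adjusted p = 0.0188) and in SF/HA-HEP-PAM (-1.63, SE 0.32, adjusted p = 0.00593). The second call held whichever library was left out, and the first was lost without Alkali-burned replicate 2 or 3 or SF/HA replicate 1 or 2 (adjusted p between 0.0577 and 0.0962). Against Control, Ifi47 was called lower in SF/HA-HEP-PAM without Control replicate 1 (-1.11, adjusted p = 0.0333), with quantile normalization (adjusted p = 0.0234) and on the recovered reads (adjusted p = 0.0108). Gbp4, the neighbour of Gbp2, was 0.361 to 1.84 FPKM and was not called.

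Between the patches 3.84% of all genes were higher in SF/HA-HEP-PAM and 0.524% lower. Of the 27 members 1 was called, as higher, which is close to the share of all genes. It was Dtx3l, a ubiquitin ligase that works with Parp9 (chromosome 11, 64814926 to 64824538). It had 1.4975, 1.41 and 0.307 FPKM in Control, 1.51, 2.96 and 2.91 in Alkali-burned, 0.467, 0.417 and 0.326 in SF/HA and 2.11, 1.33 and 2.25 in SF/HA-HEP-PAM. The SF/HA values rest on 3, 2 and 3 reads. SF/HA lay below burn and below SF/HA-HEP-PAM without overlap. Dtx3l fell in SF/HA against burn (log2 difference -1.27, SE 0.27, adjusted p = 0.0319) and was 1.03 higher in SF/HA-HEP-PAM than in SF/HA (SE 0.27, adjusted p = 0.0425). The fall was lost without Alkali-burned replicate 2 or 3 or any SF/HA library (adjusted p between 0.0713 and 0.139). The difference between the patches was lost without any of those 5 libraries or any SF/HA-HEP-PAM library (adjusted p between 0.0581 and 0.163). Parp9 overlaps Dtx3l by 530 bases on the other strand, and whether counting used strand is not stated, so the split of reads is uncertain.

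No other member was called between the patches with all libraries on log2(FPKM + 1). In Irf1 the 95% interval of SF/HA-HEP-PAM minus SF/HA was -0.30 to 0.62, in Zbp1 -0.25 to 0.68, in Apol9a -0.65 to 0.80, in Ifi47 -0.65 to 0.78 and in Cmpk2 -1.004 to 0.10. Of the 27 members 23 had a difference above 0 (61.7% of all genes), but 15 did under median-of-ratios scaling and 14 without SF/HA-HEP-PAM replicate 1 (58.5% of all genes). Median-of-ratios scaling moved the median of all genes from 0.13 to -0.03.

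Psmb8 and Psmb9 replace standard subunits of the proteasome to make the immunoproteasome, and Tap1 carries its peptides into the endoplasmic reticulum for MHC class I. Psmb9 (chromosome 20, 4666046 to 4672512) had 4.77, 6.63 and 7.31 FPKM in Control, 15.9, 19.8 and 18.0 in Alkali-burned, 11.3, 9.30 and 12.8 in SF/HA and 16.3, 10.95 and 10.6 in SF/HA-HEP-PAM. All burned and patch libraries lay above all Control libraries. It rose after burn (log2 difference 1.40, SE 0.20, adjusted p = 0.00303) and its differences against burn were -0.65 and -0.50 (adjusted p = 0.135 and 0.108). In SF/HA-HEP-PAM it was called above Control without Control replicate 3 (1.01, adjusted p = 0.018) or SF/HA-HEP-PAM replicate 3 (1.01, adjusted p = 0.0209). Psmb8 (chromosome 20, 4652159 to 4655283) had 11.2, 19.5 and 17.0 FPKM in Control, 37.9, 34.1 and 30.2 in Alkali-burned, 24.0, 21.2 and 22.4 in SF/HA and 45.6, 19.8 and 24.1 in SF/HA-HEP-PAM. It rose after burn (1.08, SE 0.29, adjusted p = 0.0403), a call that was lost without any one of the 6 Control and burned libraries, and without SF/HA replicate 1 or 3 or SF/HA-HEP-PAM replicate 3 (adjusted p between 0.0508 and 0.12). In SF/HA-HEP-PAM, leaving out replicate 2 of that group put Psmb8 above Control (1.05, adjusted p = 0.0381). Tap1 was 1.30 to 2.13 FPKM in Control and 3.37 to 4.16 in Alkali-burned, a difference of 0.82 (adjusted p = 0.0386) that was short of the fold limit. Psmb9 and Tap1 overlap, so some of their reads may be shared.

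**Figure D3:**
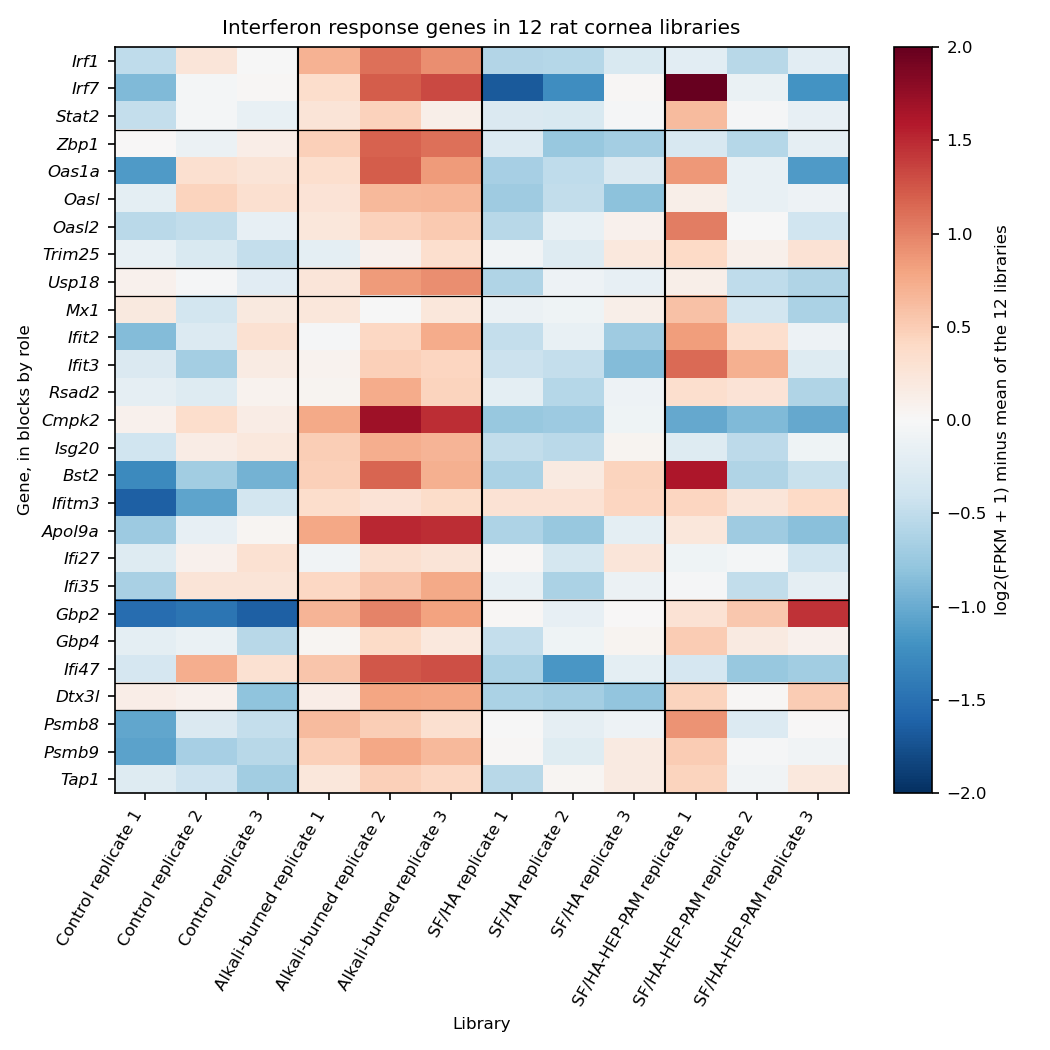
Log2(FPKM + 1) of the 27 tested members (rows, in blocks by role) in the 12 libraries (columns), each minus its mean over the 12 libraries. Alkali-burned columns are mostly red, SF/HA columns mostly blue, and SF/HA-HEP-PAM replicate 1 is red in rows such as Irf7 and Bst2 in which the other libraries of its group are pale or blue.

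The 7 genes more than 2-fold above both other libraries in SF/HA-HEP-PAM replicate 1 had ratios to their mean that reached 7.37 in Irf7 and 6.53 in Mx1. Bst2 had a ratio of 5.01, Oasl2 of 3.88, Usp18 of 3.503, Oas1a of 3.36 and Apol9a of 2.18. Among the other members that fell in both patch groups the ratio was 1.73 in Ifi47, 1.12 in Irf1, 1.04 in Zbp1 and 0.94 in Cmpk2. Gbp2 had the lowest ratio, 0.57. With that library left out, SF/HA-HEP-PAM against burn called 7 members lower (3.14% of all genes), Bst2 being added. The library was singled out for its high values in these same genes, so counts of falls without it are favoured by that choice and are given as values. On the recovered reads, where 34 members could be tested, 11 members were lower with all libraries (8.59% of all genes). Irf8, a myeloid factor, was higher by 1.58 (adjusted p = 0.0242, 12.3% of all genes higher). It had 22, 24 and 12 reads in SF/HA-HEP-PAM, and beyond them reached 10 reads only in Alkali-burned replicate 3. Irf8 thus entered this fit through the group where it is high, so its rise is favoured by that choice and is given as a value. Without SF/HA-HEP-PAM replicate 1, 16 were lower (7.61% of all genes), among them Irf7 (log2 difference -1.74, adjusted p = 0.0113), Mx1 (-1.91, adjusted p = 0.00955) and Oas1a (-1.83, adjusted p = 0.0114), and the call of Irf8 was lost (1.502, adjusted p = 0.0546). Gbp5, also among the 16, had 10, 22 and 14 reads in the burned libraries and beyond them reached 10 only in SF/HA-HEP-PAM replicate 2. It entered this fit through the burned libraries, so its fall (-1.49, adjusted p = 0.0491) is no support for the count.

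**Figure D4:**
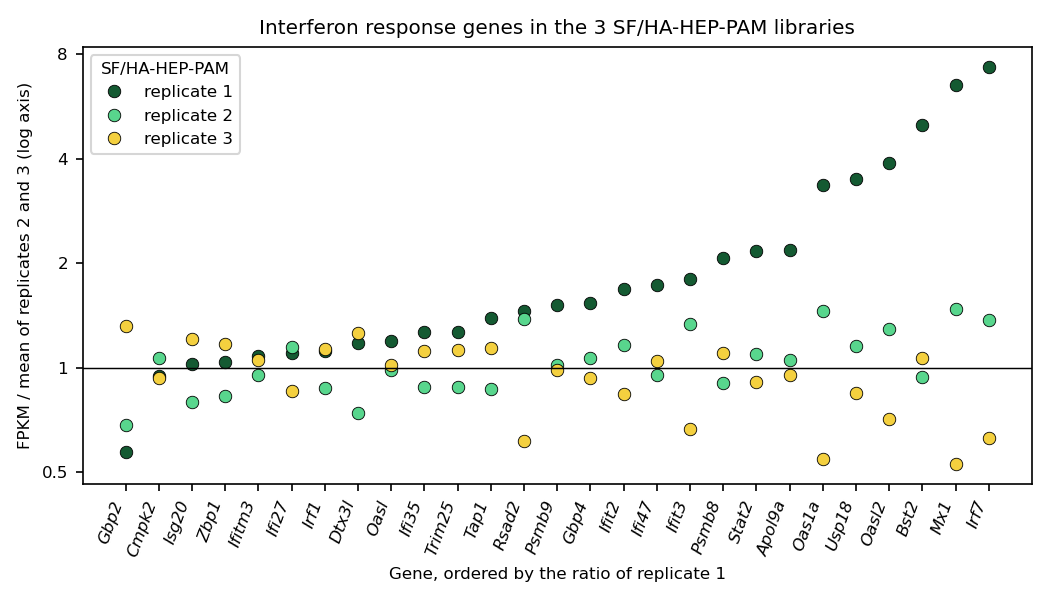
FPKM in each SF/HA-HEP-PAM library divided by the mean of replicates 2 and 3 (y axis, log scale) for the 27 tested members (x axis), ordered by replicate 1. The dark points of replicate 1 run from 0.57 in Gbp2 to 7.37 in Irf7.

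Markers of other cells moved with some of these results. The summed level of 12 macrophage markers (CPM, reads per 1e6 reads) lay at 253 to 282 in Control but at 853 to 1033 in Alkali-burned, and the patch groups stayed there, SF/HA at 850 to 1894 and SF/HA-HEP-PAM at 827 to 887. Of 9 tested macrophage markers 8 rose after burn (4.42% of all genes), and against burn 1 rose and 1 fell in each patch group. Of all genes 0.376% rose and 2.06% fell against burn in SF/HA, and 7.38% rose and 3.71% fell in SF/HA-HEP-PAM. Cd68, a lysosomal protein of macrophages, was the one that fell, by 1.34 in SF/HA and 1.65 in SF/HA-HEP-PAM on the log2 scale. The summed level of 9 neutrophil markers was 343 to 391 CPM in Control and 1281 to 6644 after burn, while SF/HA spanned 1674 to 17224 and SF/HA-HEP-PAM 2121 to 19840, with Mpo and Ltf at 0 in all libraries. Alkali-burned replicate 1, the lowest of its group in 23 of 27 members, was the highest of its group in that sum, through S100a9 (5847 CPM) and S100a8 (794 CPM). These genes made up nearly all of the neutrophil sum in every library, so it says little about the other markers of the list. Neither was called after burn (log2 difference 2.63 and 2.44, adjusted p = 0.137 and 0.296 in limma). In the burned libraries Csf3r had 0.852, 0 and 1.64 CPM and Cxcr2 0.852, 0.79 and 0, where Control had 0 for both. Every patch library lay above every burned library in Csf3r. T and NK cell markers, the usual sources of Ifng, summed to 2.26 to 24.0 CPM over all libraries, and dendritic cell markers to 4.51 to 46.1. Keratocyte markers summed to 12275 to 21503 CPM in SF/HA-HEP-PAM, the lowest 3 of the 12 libraries, while SF/HA had 34966 to 37608, Alkali-burned 27288 to 35637 and Control 32979 to 85353. The sum hides that the 6 markers did not move together. After burn Kera, Angptl7, Col1a1 and Col1a2 lay below every Control library, and Dcn and Lum overlapped Control. Kera had 2144 to 5919 CPM in Control, 722 to 1145 in Alkali-burned and 951 to 1096 in SF/HA. Dcn had 6750 to 13445 CPM in Control and 12721 to 18854 in Alkali-burned. Corneal epithelium markers were lower after burn, at 16583 to 26318 CPM where Control had 30619 to 55465, with SF/HA at 20819 to 30928 and SF/HA-HEP-PAM at 26549 to 35433. The part of these cells in the results was not tested.

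Interferon ligands were scarcely read. Over the 12 libraries and 12963832 reads, Ifnb1 had 1 read and Ifng, Ifna1, Ifna4 and Ifnl3 had 0, which allows up to 0.231 CPM, for counting error only. Ifnk, the keratinocyte interferon, had 27 reads, Ifnl1 had 8 and Ifne had 4. Il12a had 2, Il12b had 7 and Il15 had 24, while Il18, which stimulates Ifng release, had 1116 reads and between 1.18 and 6.11 FPKM. None of the 2 ligands that could be tested, Il18 and Ifnk, was called. Ifnk overlaps Mob3b, so its reads are uncertain.

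Of the receptors, Ifngr1 rose in SF/HA-HEP-PAM against Control (log2 difference 1.08, SE 0.16, adjusted p = 0.00159), with 2.87 to 4.60 FPKM in Control and 8.35 to 9.24 in SF/HA-HEP-PAM. Ifngr2 was 4.80 to 7.84 FPKM and Ifnar1 0.746 to 1.88 FPKM over the 12 libraries, and neither was called. Ifnar2, with 378 reads, and the kinase Jak1, with 938, were below the filter. Socs1, which inhibits these kinases, rose after burn by 1.48 (adjusted p = 0.024) and stayed 1.32 above Control in SF/HA-HEP-PAM (adjusted p = 0.0204). Tnfaip3, a brake on inflammatory signalling, was above Control in SF/HA (1.72, adjusted p = 0.00082) and in SF/HA-HEP-PAM (1.80, adjusted p = 0.000326).

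A list of other genes of the pathway matched 112 genes of the table, of which 47 could be tested. Of these 47, 8 rose after burn and 0 fell, where 4.42% of all genes rose. Against burn 5 fell and 0 rose in SF/HA (2.06% of all genes fell). In SF/HA-HEP-PAM 6 fell and 3 rose against burn, where 3.71% of all genes fell and 7.38% rose. Against Control 2 rose and 1 fell in SF/HA (3.19% and 1.37% of all genes), and 7 rose and 1 fell in SF/HA-HEP-PAM (9.21% and 2.39%). Between the patches Ifitm1 was lower in SF/HA-HEP-PAM. MHC class I, which shows peptides to T cells, held 5 of these 8 rises, among 10 tested genes (4.42% of all genes rose). RT1-CE1, a class I heavy chain, had 33.3, 23.1 and 27.9 FPKM in Control, 83.3, 102 and 97.8 in Alkali-burned, 25.1, 33.0 and 43.4 in SF/HA and 46.7, 36.5 and 40.7 in SF/HA-HEP-PAM. It rose after burn (log2 difference 1.72, SE 0.21, adjusted p = 0.00119) and fell in SF/HA (-1.48, adjusted p = 0.0046) and SF/HA-HEP-PAM (-1.17, adjusted p = 0.00355). RT1-S3 and RT1-N3, of the non-classical class I genes, rose after burn by 1.72 and 1.78 (adjusted p = 0.0211 and 0.0177). RT1-S3 fell against burn in SF/HA-HEP-PAM (-1.61, adjusted p = 0.0147), and RT1-N3 was 1.27 above Control there (adjusted p = 0.0392). The RT1 genes are near copies, so the share of each is uncertain. B2m, the class I light chain, rose after burn by 1.38 (adjusted p = 0.00988). Psmb10, another immunoproteasome subunit, had 59.3 to 60.5 FPKM in Alkali-burned and 18.2 to 35.4 in both patch groups, and fell against burn in each (-1.21 and -1.28, adjusted p = 0.0487 and 0.0101).

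Irgm, an immunity-related GTPase, fell against burn by 2.10 in SF/HA (adjusted p = 0.0177) and by 1.80 in SF/HA-HEP-PAM (adjusted p = 0.0096) on the log2 scale. Sting1, the adaptor of DNA sensing, rose after burn by 1.39 (adjusted p = 0.00746) and its differences against burn were -1.11 and -1.05 (adjusted p = 0.0323 and 0.0113), on 87 reads in all. Whether Sting1 passed the filter through the burned libraries alone is not given here. It is among the pathway rises and falls counted above, and its calls are no firm support for those counts. Samd9, a restriction factor, fell below Control in both patch groups (-1.33 and -1.61, adjusted p = 0.0114 and 0.00199). Lgals3bp, a secreted galectin-binding protein, rose after burn by 2.23 (adjusted p = 0.00414) and was 1.47 and 1.60 above Control in the patch groups (adjusted p = 0.0309 and 0.00891). Those that rose in SF/HA-HEP-PAM against burn included Irf2bp2, a corepressor (1.56, adjusted p = 0.000167), and Myd88, the adaptor of Toll-like receptors (1.23, adjusted p = 0.0071). Irf2bp2 was also above Control in SF/HA-HEP-PAM (1.39, adjusted p = 0.000416). Against burn 4 of 7 tested markers of corneal epithelium rose in SF/HA-HEP-PAM (7.38% of all genes), and the part of epithelial content was not tested.

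The 12 members below the filter did not reach 1 FPKM in 3 libraries. FPKM here divides by the whole genomic span, so a long gene can fall below it with more reads than a short gene that passes, as Parp9 did beside Dtx3l, which had 200 reads. Parp9 had 216 reads over the 12 libraries, Igtp and Parp14 had 212 each, Eif2ak2 146, Gbp5 101, Irf8 100, Ifih1 90, Xaf1 62, Mx2 53, Dhx58 51 and Irf9 1. Of the 53 reads of Mx2, a GTPase related to Mx1, 27 came from SF/HA-HEP-PAM replicate 1. Isg15, the ubiquitin-like protein that is usually among the strongest interferon responders, had 0 reads in every library. Isg15 overlaps Agrn and Irf9 overlaps Rnf31 in the annotation, on the same strand, so a read at either could have been left uncounted or given to the other gene, and neither value speaks on expression.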

How the data were processed

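The 12 rat cornea libraries were grouped by their titles. Reverse transcription used poly(dT) primers with sample barcodes and molecular identifiers, per the labels' protocols. The authors trimmed reads with fastp and counted them with HTSeq-count per the series text, or with STAR and featureCounts on mRatBN7.2 per the submitters' processing notes. Collapsing of identifiers and use of strand are not given in the sources used here. The deposited values are FPKM, per the file headers, and each gene's length there is its whole genomic span with introns, so intron-rich genes read low.

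In each library the product of FPKM and length came in whole multiples of a single step (largest relative deviation 2.16e-06), which gave back 486264 to 2117399 reads per library. Limits for 0 reads (3 reads) cover counting error only. The 6112 genes at 1 FPKM or more in 3 or more libraries entered limma 3.58.1 in R 4.3.3 on log2(FPKM + 1), pseudocount 1, with a variance trend and a mean for each of the 4 groups. Calls needed a Benjamini-Hochberg adjusted p below 0.05 over all genes and a log2 difference above 1 or below -1. Fold changes on this scale understate the change of low genes. limma-voom on the reads so recovered, for the 8653 genes that had 10 reads or more in 3 libraries, was an alternative. Other scalings, filters, a pseudocount of 0.1, a replicate block and leaving out each library were also run, and 3 further settings were chosen after seeing the data. The fits were tested on simulated data.

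Members called in at least 1 of 6 comparisons and the 8 uncalled members of highest mean FPKM are given per library, and the others by range. Pathway genes are named when called, and receptors, ligands and Jak1 always; some items are not reported here. The members and lists were chosen with earlier results of these data known. Promoter sequences are from RefSeq (GRCr8). Lines naming no gene (108) were left out.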

Additional observations from a re-analysis of the deposited data

Results flagged for a closer look

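Dtx3l was picked out because the 2 patch groups differed in it by a test of the difference itself. It was 1.03 higher on the log2(FPKM + 1) scale in SF/HA-HEP-PAM than in SF/HA (SE 0.27, 95% interval 0.43 to 1.63, adjusted p = 0.0425 in limma). It was the 1 member of 27 called higher there, where 3.84% of all genes were, so the count is close to the share of all genes. Dtx3l had 200 reads in all 12 libraries, of which 8 fell in SF/HA (3, 2 and 3) and 83 in SF/HA-HEP-PAM. All 3 SF/HA-HEP-PAM libraries lay above all 3 SF/HA libraries. Leaving out single libraries gave differences of 0.94 to 1.18 with adjusted p of 0.0203 to 0.163. The call was kept in 6 of 21 alternatives. It was lost on the recovered reads (limma-voom, adjusted p = 0.0826), under median-of-ratios scaling (0.0644) and under quantile normalization (0.0974).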

How the results depend on the processing

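Of 26 member calls over the 6 comparisons, 16 held under every alternative run, 17 held whichever single library was left out, and 0 reversed. Leaving out single libraries gave 3 to 8 called members for burn against Control, 4 to 8 for SF/HA against burn, 5 to 7 for SF/HA-HEP-PAM against burn, 0 to 1 between the patches, 2 to 4 for SF/HA against Control, 3 to 5 for SF/HA-HEP-PAM against Control and 9 to 14 in the F-test. Burn against Control gave 3 without Alkali-burned replicate 2 or 3. SF/HA against burn gave 4 without either of those or without SF/HA replicate 1 or 2. SF/HA against Control gave 4 without Control replicate 1 (2 of them lower), and SF/HA-HEP-PAM against Control gave 5 without SF/HA-HEP-PAM replicate 3. With quantile normalization burn against Control gave 4, SF/HA against Control 1 and the patches 0. Without a filter SF/HA against burn gave 4 and the patches 0, where a minimum of 5 FPKM, median-of-ratios scaling and the replicate block also gave 0. Fitting only the compared libraries gave 1 for SF/HA against Control. With voom, SF/HA-HEP-PAM gave 12 against burn (11 lower and 1 higher, where 8.59% and 12.3% of all genes were) and 5 against Control. voom without SF/HA-HEP-PAM replicate 1, chosen after seeing the data, gave 13 for burn against Control, 16 for SF/HA-HEP-PAM against burn (all lower, 7.61% of all genes), 5 against Control and 21 in the F-test. The adjusted p alone gave 5 for SF/HA-HEP-PAM against Control. The causes were not tested, though voom tests more members. For most of these alternative fits the share of all genes called is not given. Their counts show how far the calls depend on the setting, and not whether members moved more than all genes did. Correlations of same-numbered libraries were -0.0935 to 0.155 over 18 pairs, of which 2 were above 0.1, so the numbers were not taken to pair samples, and the replicate block gave 6, 6, 6, 0, 2 and 3 calls in the 6 comparisons and 11 in the F-test. The filter on FPKM leaves 12 members untested, and voom on reads tested 34 of the 39.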

Other observations

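Where members lie side by side in the genome, neighbours did not always share a call. Cmpk2 was called against burn in both patch groups, while Rsad2, its head-to-head neighbour, had differences of -0.71 in SF/HA (adjusted p = 0.207) and -0.41 in SF/HA-HEP-PAM (adjusted p = 0.298). Oasl fell in SF/HA, while Oasl2, 13793 bases away on chromosome 12, had a difference of -0.61 (adjusted p = 0.378). Whether neighbours differ from each other was not tested.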
